A study of Mus musculus with 6 samples.

Results

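The CITED coactivators and their binding partners CBP and p300 are described here by the 5 genes *Cited1*, *Cited2*, *Cited4*, *Crebbp* and *Ep300*, found by symbol among 41128 genes listed. *Cited4* was selected on its measured RPKM, for its rise in *Hoxa9*/*IRX3* versus *Hoxa9*/MTV leukemias, so its values in that comparison are a description with no test, and the other 4 genes joined it by family and binding. RNA was sequenced from KIT+Gr1+ acute myeloid leukemia (AML) cells flow sorted from the bone marrow (BM) of 6 C57BL/6 mice, with 1 library per mouse. CD45.1+ KIT+ BM cells had been transduced with retroviral FLAG-tagged *Hoxa9* together with either the empty vector MTV (3 mice: 1.1, 1.2 and 1.4) or human *IRX3* cDNA (3 mice: 3.2, 3.3 and 3.5), and transplanted into irradiated CD45.2+ female recipients with unfractionated CD45.2+ support BM. Both cohorts therefore carry *Hoxa9*, both received 2 retroviral vectors, and donor cells were sorted by KIT and Gr1 from mice that had become ill. The labels give no age, while the paper gives an age range in weeks for donors and recipients. Mice were collected when they became ill, so time since transplantation was not fixed and cannot be told apart from cohort here. The paper reports a later onset of AML in *Hoxa9*/*IRX3* than in *Hoxa9*/MTV recipients. The labels' mouse numbers differ between cohorts, so no mouse of 1 cohort is matched to a mouse of the other.

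CITED proteins are small nuclear coactivators that do not bind DNA themselves. Their acidic C-terminal region docks onto a zinc-binding domain of CBP (encoded by *Crebbp*) and p300 (*Ep300*), large lysine acetyltransferases that transcription factors bring to enhancers and promoters. The hypoxia-inducible factor HIF binds the same domain, so that Cited2, itself a product of a HIF-responsive gene, can displace it, and Cited2 is needed to maintain hematopoietic stem cells. Cited1 and Cited4 are better known from other tissues, among them kidney, mammary gland and heart, and Cited4 was described as a partner of AP-2 factors.

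The shared C-terminal region is printed first because it is the part of the CITED genes that contacts CBP and p300. *Cited1*, *Cited2* and *Cited4* have 203, 269 and 182 codons before the stop in GENCODE M21. The 75 coding bases below are the ungapped block, found among the last 150 coding bases of each gene, that is most alike in all of them. They end 27 bases before the stop codon in *Cited1* and 48 bases before it in *Cited2* and *Cited4*. Capitals mark the 42 bases (56.0%) that are identical in all of these genes.
Cited1: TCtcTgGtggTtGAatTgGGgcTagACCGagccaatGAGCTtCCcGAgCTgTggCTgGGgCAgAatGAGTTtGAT
Cited2: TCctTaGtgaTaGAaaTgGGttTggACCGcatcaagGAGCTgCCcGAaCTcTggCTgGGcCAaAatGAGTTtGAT
Cited4: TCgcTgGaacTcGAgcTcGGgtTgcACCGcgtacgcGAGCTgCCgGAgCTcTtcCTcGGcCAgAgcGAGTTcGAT
Within this block *Cited2* was 76% identical to *Cited1* and 65.3% identical to *Cited4*, and *Cited1* and *Cited4* were 64.0% identical. No run of 75 bases, the read length, occurred in transcripts of *Cited1*, *Cited2*, *Cited4* or *Ep300* and also in those of another gene. In *Crebbp* 30 of 13892 runs (0.216%) did, all with *Teddm1b*.

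RPKM as deposited divides a gene's reads by its length and by the reads of the library. The length used runs from the first to the last base of the gene, introns included. Levels of 1 gene across mice are given in these RPKM, and levels of different genes are compared only after the recovered reads were divided by exon length (exon RPKM). The recovered reads could not be split into exon and intron reads, so exon RPKM compare genes only roughly. *Crebbp* and *Ep300* span 132670 and 66727 bases with 13540 and 14273 exon bases, whereas *Cited2* and *Cited4* have no bases outside exons. On the exon RPKM scale *Cited2* had the highest mean level of the 5 genes in both cohorts. Its mean was 148 ± 71.0 exon RPKM (SD, n = 3) in *Hoxa9*/MTV and 156 ± 62.7 in *Hoxa9*/*IRX3* leukemias, above 98.0% and 98.4% of the 9522 tested genes. *Ep300* followed at 13.3 ± 2.28 and 14.1 ± 1.87, and *Crebbp* at 8.36 ± 0.863 and 7.79 ± 1.14. *Cited4* moved from the lowest place, at 0.117 ± 0.0417, to the place below *Cited2*, at 64.5 ± 52.9. *Cited1* was at 0.198 ± 0.187 and 0.0214 ± 0.0371, with its highest level, 0.412, in mouse 1.2. Neighbours in this order that overlapped were *Cited4* and *Cited2* in the *Hoxa9*/*IRX3* cohort and *Cited1* and *Cited4* in the *Hoxa9*/MTV cohort.

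**Figure D1:**
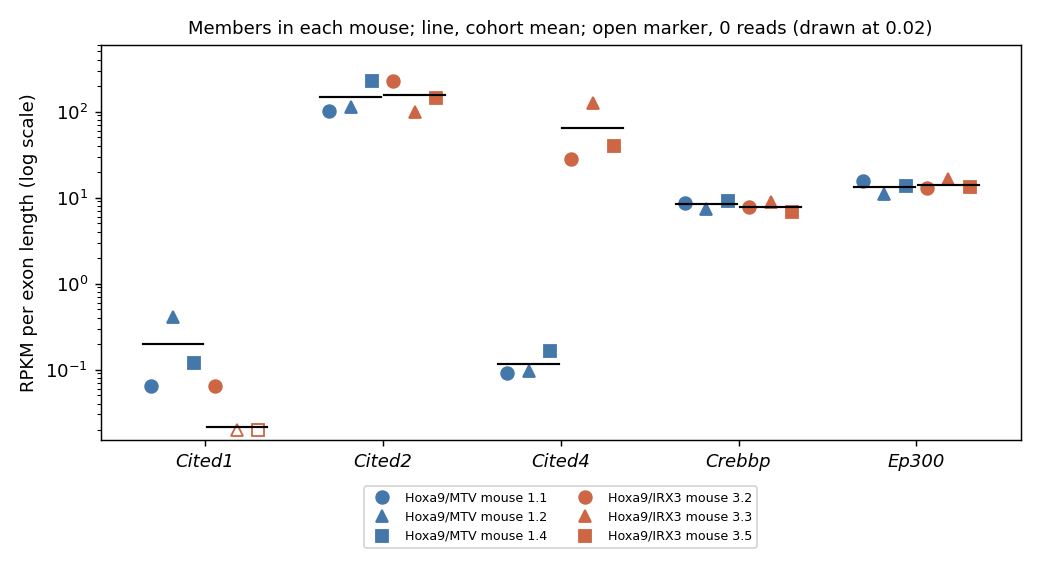
Level of each of the 5 genes in each mouse, in exon RPKM on a log axis, with blue markers for *Hoxa9*/MTV, red markers for *Hoxa9*/*IRX3* and a line at each cohort's mean. *Cited4* lies between 0.0905 and 0.166 in the *Hoxa9*/MTV mice and between 28.3 and 125 in the *Hoxa9*/*IRX3* mice, while the cohorts overlap for *Cited2*, *Crebbp* and *Ep300*.

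*Cited4* (ENSMUSG00000070803) is a gene of 1 exon of 1249 bases on the forward strand at chr4:120666572-120667820 (GRCm38). It was close to undetected in *Hoxa9*/MTV leukemias, at 0.0905, 0.0964 and 0.166 RPKM in mice 1.1, 1.2 and 1.4, which rest on 1, 1 and 2 reads. In *Hoxa9*/*IRX3* leukemias it stood at 28.3, 125 and 40.1 RPKM in mice 3.2, 3.3 and 3.5, from 313, 1533 and 400 reads. Each *Hoxa9*/*IRX3* mouse was above each *Hoxa9*/MTV mouse, and mouse 3.3 was well above mice 3.2 and 3.5.

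The difference was 6.42 on the log2(RPKM + 0.5) scale, rank 1 among the rises of all 9522 tested genes. This value understates a gene with so few reads in 1 cohort, because it depends on the added 0.5. Counted over the cohorts, 4 reads stood against 2246, a ratio of 565 per library size. Mouse 3.3 gave 1533 of the 2246 reads, and without it the ratio was 284. The largest *Hoxa9*/*IRX3* value was 4.43 times the smallest, and the coefficient of variation in that cohort was 81.9%. Among tested genes *Cited4* went from above 1.64% of exon RPKM levels to above 94.2%. It passed the filter on low values only through the *Hoxa9*/*IRX3* mice. In RNA of whole sorted populations, a change in the number of expressing cells and a change in RNA per cell cannot be told apart.

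The table's *Hoxa9* (retroviral and endogenous reads together) was 292 ± 103 RPKM in *Hoxa9*/MTV and 206 ± 45.9 in *Hoxa9*/*IRX3* mice, with overlap. Reads on mouse *Irx3* were 0 in each *Hoxa9*/MTV mouse and 454, 14 and 4 in mice 3.2, 3.3 and 3.5. Mouse 3.2, with the most *Irx3* reads, thus had the lowest *Cited4* of its cohort. The introduced cDNA was human, and *Irx3* reads on the mouse gene are no measure of its level.

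*Cited2* (ENSMUSG00000039910, chr10:17723218-17725674, forward strand) was abundant in each mouse and did not separate the cohorts. Its RPKM were 102, 113 and 230.5 in mice 1.1, 1.2 and 1.4, and 225, 100.3 and 146 in mice 3.2, 3.3 and 3.5, from 2197 to 5453 reads. Mice 1.4 and 3.2 were high, mice 1.1, 1.2 and 3.3 were low, and the cohorts overlapped throughout their range. The difference was 0.10 (SE 0.41, 95% interval -0.87 to 1.08) on the log2 scale, with an adjusted p of 0.898 by limma over all tested genes. This interval, 0.548- to 2.11-fold, reaches just past 2-fold on the high side. In 3 of the 6 fits that left out 1 mouse the sign turned, with values from -0.19 to 0.47.

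*Cited1* (ENSMUSG00000051159, chrX:102247381-102252181, reverse strand) was at or near the limit of detection in both cohorts. It had 1, 6 and 2 reads in mice 1.1, 1.2 and 1.4, and 1, 0 and 0 reads in mice 3.2, 3.3 and 3.5. Its highest level was 0.150 RPKM, in mouse 1.2, so it did not reach the 0.5 RPKM required for a test. Over the cohorts 9 reads stood against 1, a ratio of 8.94 with an exact 95% interval of 1.24 to 392 for counting error only, and 6 of the 9 reads came from 1 mouse. A library at 0 reads allows up to 3 reads at this depth.

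The rise of *Cited4* changed the make-up of the CITED family more than its total. Summed over the family, exon RPKM were 101, 113 and 229.7 in mice 1.1, 1.2 and 1.4 and 252, 225 and 186 in mice 3.2, 3.3 and 3.5, which overlap because of mouse 1.4. *Cited4* made up 0.0894%, 0.0850% and 0.0721% of the family in the *Hoxa9*/MTV mice. Its share was 11.2%, 55.6% and 21.6% in mice 3.2, 3.3 and 3.5. In mouse 3.3, which had the lowest *Cited2* of all 6 mice, *Cited4* exceeded *Cited2* by 1.25 times, whereas *Cited2* remained 7.91 and 3.62 times higher than *Cited4* in mice 3.2 and 3.5. *Cited2* therefore made up at least 99.6% of the family in each *Hoxa9*/MTV mouse and between 44.4% and 88.8% in the *Hoxa9*/*IRX3* mice. These shares rest on the gene chosen for its rise and are given without a test.

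**Figure D2:**
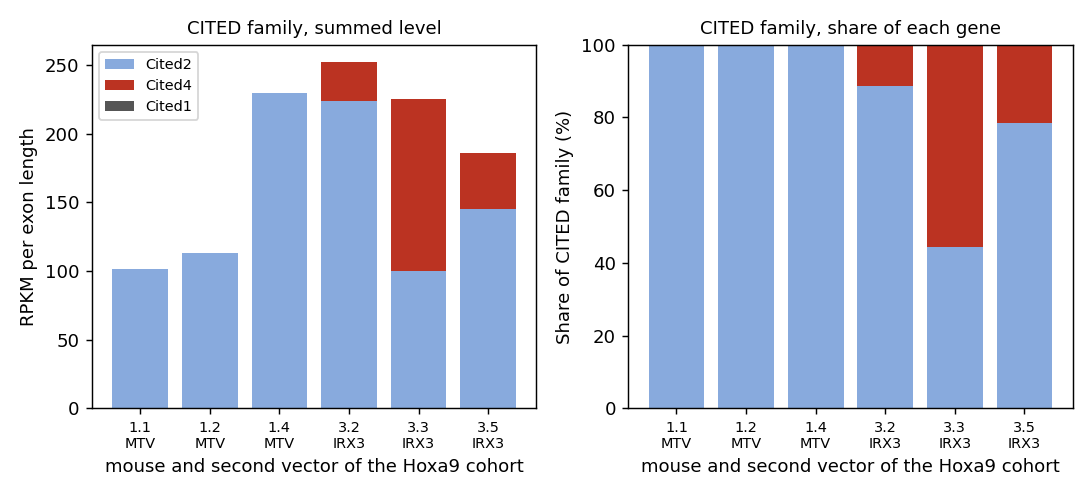
CITED family in each mouse, as summed exon RPKM (left) and as the share of each gene in percent (right), with *Cited2* in light blue, *Cited4* in red and *Cited1* in grey, too low to be seen. *Cited4* is visible in the *Hoxa9*/*IRX3* mice alone and reaches 55.6% in mouse 3.3.

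*Ep300* (ENSMUSG00000055024, chr15:81585351-81652077, forward strand) varied little. Its RPKM were 3.33, 2.35 and 2.88 in mice 1.1, 1.2 and 1.4, and 2.77, 3.48 and 2.81 in mice 3.2, 3.3 and 3.5, on 1303 to 2279 reads per mouse. The 3 values of mice 3.2, 3.5 and 1.4 lay within a narrow band, with mouse 1.2 lowest and mouse 3.3 highest. The difference was 0.08 (SE 0.15, 95% interval -0.29 to 0.44) on the log2 scale, with an adjusted p of 0.787 by limma. A miRNA gene and a small nuclear RNA gene lie inside *Ep300* on the same strand, with 7 to 20 reads and with 0 or 1 read per library.

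*Crebbp* (ENSMUSG00000022521, chr16:4081328-4213997, reverse strand) was the steadiest of the 5 genes, its highest mouse being 1.34 times its lowest. Its RPKM were 0.890, 0.757 and 0.924 in mice 1.1, 1.2 and 1.4, and 0.789, 0.921 and 0.687 in mice 3.2, 3.3 and 3.5. The cohorts overlapped, with the lowest value in mouse 3.5 and the highest in mouse 1.4. The difference was -0.06 (SE 0.12, 95% interval -0.36 to 0.23) on the log2 scale, with an adjusted p of 0.773 by limma. Under quantile normalization the sign of this difference turned.

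*Ep300* was above *Crebbp* on the exon RPKM scale in 6 of 6 mice, by 1.79, 1.49 and 1.5 times in mice 1.1, 1.2 and 1.4 and by 1.69, 1.81 and 1.96 times in mice 3.2, 3.3 and 3.5. The ratio averaged 1.59 ± 0.172 in *Hoxa9*/MTV and 1.82 ± 0.137 in *Hoxa9*/*IRX3* mice (exact two-sided permutation test, p = 0.2, where 0.1 is the smallest that 3 mice against 3 allow). Their summed level was 21.7 ± 3.01 and 21.9 ± 2.93 exon RPKM (exact permutation test, p = 1). *Cited2* per unit of this sum ranged from 4.17 to 10.2 in *Hoxa9*/MTV and from 3.95 to 10.8 in *Hoxa9*/*IRX3* mice (exact permutation test, p = 0.8). These comparisons between genes are rough, as intron reads were not separated. Transcript levels do not give protein levels of *Ep300* or *Crebbp*.

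Of the 3 tested genes that the choice did not use, *Cited2*, *Crebbp* and *Ep300*, 0 passed an adjusted p under 0.05 and a 2-fold change by limma, against 3.13% of all tested genes. None of these 3 had an unadjusted p under 0.05 (24.3% of all genes did), and none had cohorts that did not overlap (33.7%). They also numbered 0 among the calls of voom on recovered reads (3.8% of all genes) and of the study's criterion of an unadjusted p under 0.05 with a ratio of means over 2 (6.97%). Their small number keeps 0 from being a result. The 95% interval lay inside 2-fold in both directions for *Crebbp* and *Ep300*, as for 73.6% of all tested genes, and not for *Cited2*.

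The bases upstream of *Cited4* and *Cited2* are printed because 1 of these family members rose and the other, far more abundant, did not. Each window holds the 250 bases before the RefSeq transcription start (GRCm38.p6), at chr4:120666313-120666562 on the forward strand for *Cited4* and chr10:17722978-17723227 on the forward strand for *Cited2*. Capitals mark matches, on either strand, to 10 motifs: the TATA box (searched as TATAAA), the box named by its letters CCAAT, the GC box (searched as GGGCGG), hypoxia response element (ACGTG or GCGTG), cyclic AMP response element (TGACGTCA), AP-1 (TGANTCA), AP-2 (GCCNNNGGC), MEIS (TGACAG), HOX-PBX (TGATTNAT) and Iroquois (ACANNTGT).
Cited4: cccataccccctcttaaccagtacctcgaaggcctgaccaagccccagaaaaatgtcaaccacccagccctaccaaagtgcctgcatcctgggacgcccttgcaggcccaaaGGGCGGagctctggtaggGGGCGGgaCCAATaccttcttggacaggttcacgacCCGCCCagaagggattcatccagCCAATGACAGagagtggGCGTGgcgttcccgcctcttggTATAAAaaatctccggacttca
Cited2: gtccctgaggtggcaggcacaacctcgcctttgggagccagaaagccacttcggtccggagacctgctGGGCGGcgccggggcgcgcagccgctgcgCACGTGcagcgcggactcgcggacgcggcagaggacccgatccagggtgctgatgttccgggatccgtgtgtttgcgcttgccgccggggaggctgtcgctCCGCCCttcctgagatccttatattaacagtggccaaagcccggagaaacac
The *Cited4* window has a TATA box 22 to 17 bases before the start, CCAAT boxes beginning at bases -112 and -61, 3 GC boxes, a GCGTG at -44 and a MEIS match at -57 that shares its first base with a CCAAT box. The *Cited2* window has neither TATA nor CCAAT box, but has 2 GC boxes and a palindrome that matches the hypoxia element on both strands. *Cited2* is the richer in G and C, at 66.8% against 58.0% for *Cited4* and a median of 52.4% over 32851 windows of the same length from 27025 genes. Among all windows 12.4% hold the TATA box, 33.8% the CCAAT box, 32.7% the GC box, 38.6% the hypoxia element and 15.9% the MEIS match. The motifs are short and a match is a description only.

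The windows of *Crebbp* and *Ep300*, at 84.0% and 73.2% G and C, hold neither TATA nor CCAAT boxes. They lie at chr16:4213405-4213654 (reverse strand) and chr15:81585964-81586213 (forward strand). Both are inside the gene coordinates given above, because the RefSeq starts used lie downstream of the gene's first base. *Crebbp* has 2 GC boxes and 2 AP-2 matches, 1 of which overlaps a GC box, and *Ep300* has 1 GC box. *Cited1* has 3 annotated starts, of which 2 have a TATA match. The cyclic AMP response element (1.55% of all windows), AP-1 (6.75%), HOX-PBX (2.82%) and Iroquois (6.31%) letters are in none of the windows of the 5 genes, and AP-2 letters are in 13.7% of all windows.

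**Figure D3:**
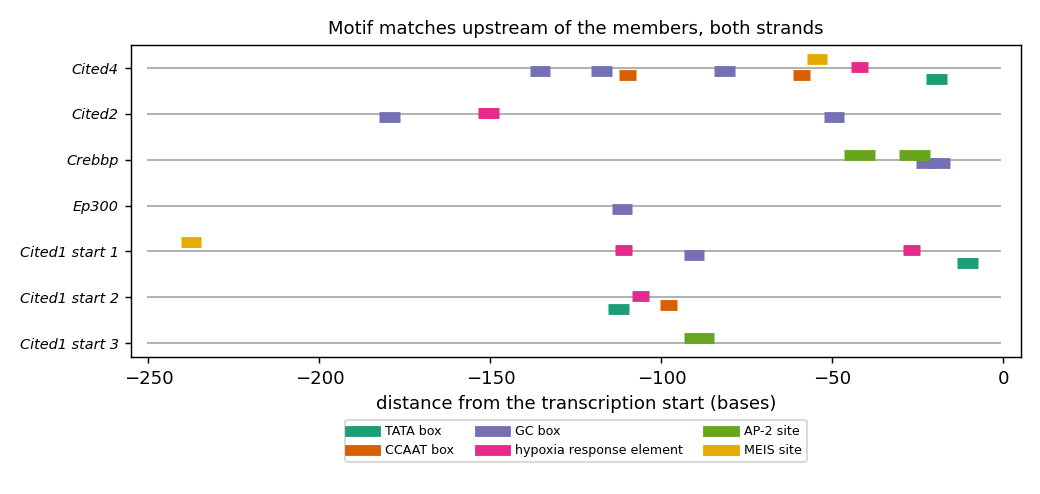
Motif matches on both strands in the 250 bases before each annotated start of the 5 genes, by distance from the start in bases, with 1 colour per motif. *Cited4* has matches to 5 of the 10 motifs, with the TATA box nearest the start, while *Cited2* has matches to the GC box and the hypoxia response element.

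Genes beside *Cited4* on the chromosome are described by their own differences, as any neighbour of the gene with the largest rise had to rise less. The nearest tested genes are *Ctps*, a CTP synthase 96.3 kb before it, and *Exo5*, an exonuclease 253.4 kb after it. *Ctps* differed by -0.04 (adjusted p = 0.873 by limma) and *Exo5* by 0.19 (adjusted p = 0.567). Farther out, *Foxj3* at 1037.5 kb differed by -0.12 (adjusted p = 0.569), and *Smap2* at 300.5 kb by -0.95 (adjusted p = 0.0338), short of 2-fold on the log2(RPKM + 0.5) scale and opposite in sign to *Cited4*. As a ratio of mean RPKM *Smap2* was 2.35 times higher in *Hoxa9*/MTV mice, which met the study's criterion, and voom gave -1.28 (adjusted p = 0.0344). *Smap2* stood at 2.27, 2.48 and 2.35 RPKM in mice 1.1, 1.2 and 1.4 and at 0.782, 1.42 and 0.809 in mice 3.2, 3.3 and 3.5, with no overlap. Beside *Cited2*, *Heca* (142.9 kb) differed by -0.67 (adjusted p = 0.0220 by limma), *Abracl* by 0.21, *Adat2* by -0.29 and *Pex3* by -0.38, and none of the last 3 had an adjusted p under 0.05.

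The genes whose pattern over the 6 mice was most like that of *Cited4*, *Cited2*, *Ep300* and *Crebbp* were listed, and *Cited1* was too low to be compared. Likeness was measured as the root mean square (RMS) difference of log2 values scaled to mean 0 and SD 1, where 0 is an identical pattern, among 6968 tested genes of at least 1 RPKM on average (6969 for *Crebbp*). Nearest to *Cited4* were *Asns*, asparagine synthetase (RMS 0.0708), *Txn1*, thioredoxin (0.0728), *Mtfp1* (0.0897), *Eef1d* (0.0920) and *Smim19* (0.117). As these genes were picked for their likeness to *Cited4*, separation of the cohorts and the direction of their differences were set by the choice. The scaled measure ignores size. *Asns* differed by 2.00, *Mtfp1* by 1.18, *Smim19* by 0.89, *Txn1* by 0.72 and *Eef1d* by 0.22 on the log2 scale, against 6.42 for *Cited4*.

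*Asns* stood at 0.400, 0.326 and 0.349 RPKM in mice 1.1, 1.2 and 1.4 and at 2.58, 3.67 and 2.67 in mice 3.2, 3.3 and 3.5, with mouse 3.3 highest as for *Cited4*. Nearest to *Cited2* were *Socs1* (0.197), *Map1lc3b* (0.219) and *Mitd1* (0.241). *Socs1*, an inhibitor of cytokine signaling, was at 1.05, 1.04 and 8.79 RPKM in mice 1.1, 1.2 and 1.4 and 12.1, 0.649 and 4.42 in mice 3.2, 3.3 and 3.5. It was high in the same mice, 1.4 and 3.2, as *Cited2*. For *Ep300* the nearest were *Elmod2* (0.108), *Zfp574* (0.191) and *Sertad3* (0.218), and for *Crebbp* they were *Sf3a2* (0.156), *Mtx1* (0.164) and *Eme2* (0.175). Among members, *Crebbp* and *Ep300* were the closest pair (0.752), and *Cited4* was 1.30, 1.42 and 1.04 from *Cited2*, *Crebbp* and *Ep300*. That a listed gene was high in the same mice as its member follows from how it was picked. These are descriptions over 6 libraries that were pooled for sequencing.

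The genes with which CITED proteins, CBP and p300 work were followed through 9 lists of 131 genes, of which 105 were tested. The lists were chosen with earlier results of these data known, so their counts are a description. By limma 2 of the 105 rose and 5 fell (6.67%), against 1.1% higher and 2.03% lower among all tested genes. Under voom the lists held 4 calls (3.81%, against 3.8% of all tested genes) and under the study's criterion 9 (8.57%, against 6.97%). A total of 27 (25.7%) had an unadjusted p under 0.05 against 24.3% of all tested genes, 38 (36.2%) had cohorts that did not overlap against 33.7%, and their median difference was -0.10, against -0.06 over all tested genes. Leaving out mouse 1.1 or 1.2 gave 0 calls on these lists and leaving out mouse 1.4 gave 1, while leaving out mouse 3.3 gave 10 and leaving out mouse 3.5 gave 3. Over all genes the fits without 1 mouse gave 61 (without mouse 1.4) to 409 (without mouse 3.2) calls, against 298.

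**Figure D4:**
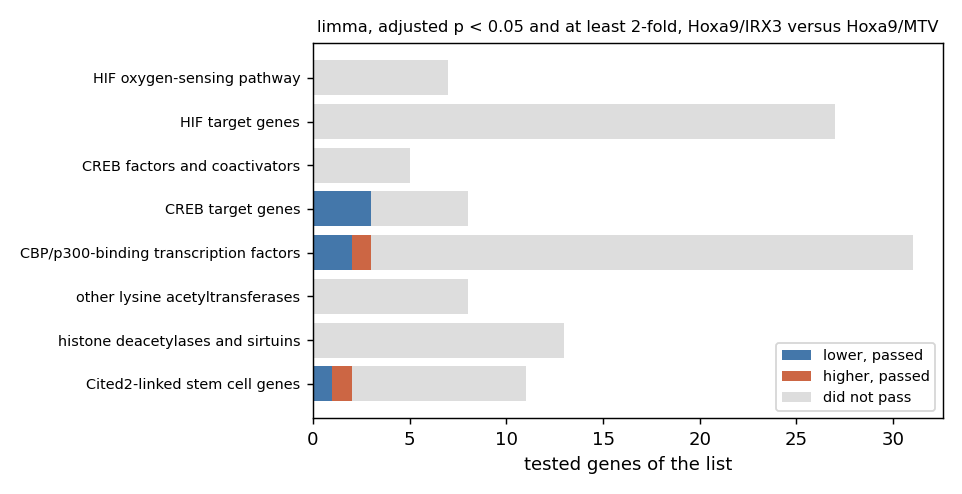
Tested genes of each partner and target list as bars, by number of genes, with those lower in *Hoxa9*/*IRX3* in blue, those higher in red and those that did not pass in grey. The CREB target list holds 3 lower genes of 8, and the HIF, CREB factor, acetyltransferase and deacetylase lists hold 0 of 60 tested entries.

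Genes of the HIF branch, whose factors compete with CITED proteins for CBP and p300, did not pass both limits. Of 7 tested genes of the oxygen-sensing pathway and 27 tested HIF targets, 0 were called by limma, by voom or by the study's criterion, and 1 and 2 had an unadjusted p under 0.05. Among all tested genes 3.13% were called by limma and 24.3% had such a p, so 0 calls on lists this short are no result. The medians were -0.15 and -0.07. *Pdk1*, a mitochondrial kinase, was called lower without mouse 3.2 (-1.88, adjusted p = 0.0147) and *Vegfa* higher without mouse 3.3 (1.81, adjusted p = 0.0179), and both are named after their values were seen.

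*Hif1a*, the oxygen-regulated subunit, was the pathway gene with the low p, and is named after its values were seen. It was at 1.99, 2.22 and 2.83 RPKM in mice 1.1, 1.2 and 1.4 and at 3.88, 4.71 and 4.65 in mice 3.2, 3.3 and 3.5. All 3 *Hoxa9*/*IRX3* mice were higher, by 0.80 (SE 0.15) on the log2 scale, with an adjusted p of 0.0360 by limma but less than 2-fold. Without 1 mouse the adjusted p reached 0.153. The target *Vegfa*, an angiogenic growth factor, differed by 1.42 over all 6 mice with an adjusted p of 0.0723 by limma. *Ddit4*, the other target with an unadjusted p under 0.05, went the other way, by -1.57 (adjusted p = 0.164 by limma). Its cohorts overlapped, and it too is named after its values were seen. *Egln3*, the most abundant pathway gene and an oxygen-sensing hydroxylase, differed by -0.15 (adjusted p = 0.769), and *Aldoa*, the most abundant target and a glycolytic enzyme, by 0.33 (adjusted p = 0.584).

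AP-2 factors, described as partners of Cited4, were not detected at a level that allowed a test. *Tfap2a* lay between 0.00622 and 0.0114 RPKM, and the other 4 were listed at 0 in all mice.

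For CREB, which recruits CBP and p300 when phosphorylated, the factors and their targets gave different counts. Of 5 tested CREB factors and coactivators 0 passed by limma, voom or the study's criterion and 1 had an unadjusted p under 0.05. *Atf1*, the highest of them, differed by -0.08 (adjusted p = 0.634), with a sign that turned under quantile normalization. Of 8 tested CREB targets 3 fell and 0 rose by limma, with 5 at an unadjusted p under 0.05, 2 lower under voom and 3 lower under the study's criterion. Their median was -1.12. Among all tested genes 3.13% were called by limma, 24.3% had an unadjusted p under 0.05 and the median was -0.06. As the list was drawn up with earlier results of these data known, this is no independent comparison. Fits without 1 mouse gave 0 (without mouse 1.1) to 2 (without mouse 3.3) calls on this list.

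*Fos*, an immediate early gene and AP-1 subunit, fell the most of these. It was at 152, 249 and 161 RPKM in mice 1.1, 1.2 and 1.4 and at 26.1, 58.7 and 10.9 in mice 3.2, 3.3 and 3.5, with no overlap. Its change was -2.81 (SE 0.58) on the log2 scale, with an adjusted p of 0.0444 by limma. *Sik1*, a kinase that restrains CREB coactivators, fell by 1.62 (SE 0.26), from 5.10, 6.43 and 7.43 RPKM to 2.39, 1.02 and 1.93 (adjusted p = 0.0250 by limma).

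*Nr4a1*, an orphan nuclear receptor, fell by 1.49 (SE 0.30), from 0.768, 1.48 and 2.07 RPKM to 0.256, 0.270 and 0 (adjusted p = 0.0417 by limma). *Dusp1*, the most abundant target and a MAP kinase phosphatase, differed by -1.44 with an adjusted p of 0.0731, with no overlap of cohorts. The *Fos* call was kept only in the fit without mouse 3.3, the *Sik1* call only without mouse 3.2 or 3.3, and the *Nr4a1* call in none of the 6 fits without 1 mouse. In each of these fits and each other setting in which they were tested, the signs of *Fos*, *Sik1* and *Nr4a1* stayed negative. These targets are also immediate early genes that respond to many stimuli.

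Transcription factors that bind CBP or p300 gave calls in both directions. Of 31 tested, 1 rose and 2 fell by limma, 12 had an unadjusted p under 0.05 and the median was 0.01. Among all tested genes 3.13% were called by limma and 24.3% had such a p. voom gave 1 higher and 1 lower, and the study's criterion 1 higher and 4 lower, and fits without 1 mouse gave 0 (without mouse 1.1) to 6 (without mouse 3.3) calls. The largest fall was that of *Gata2*, a factor of stem, progenitor and mast cells, from 4.31, 2.95 and 5.84 RPKM in mice 1.1, 1.2 and 1.4 to 0.198, 0.0155 and 0.773 in mice 3.2, 3.3 and 3.5. Its cohorts did not overlap and its change was -2.62 (SE 0.37) on the log2 scale (adjusted p = 0.0166 by limma).

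*Mef2d*, a MADS-box factor, fell by 1.17 (SE 0.13, adjusted p = 0.00813 by limma), from 14.0, 13.4 and 12.3 RPKM to 5.32, 6.13 and 5.27. *Ets1*, best known from lymphoid cells, rose by 1.71 (SE 0.30, adjusted p = 0.0304 by limma), from 0.660, 0.340 and 0.473 RPKM to 2.28, 1.84 and 4.63. Both sets of values were without overlap. The *Gata2* and *Ets1* calls were lost without mouse 1.1, 1.2 or 1.4, and the *Mef2d* call without mouse 1.1 or 1.2. *Cebpa*, the most abundant factor of the list and a driver of granulocytic differentiation, differed by 0.16 (adjusted p = 0.727).

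**Figure D5:**
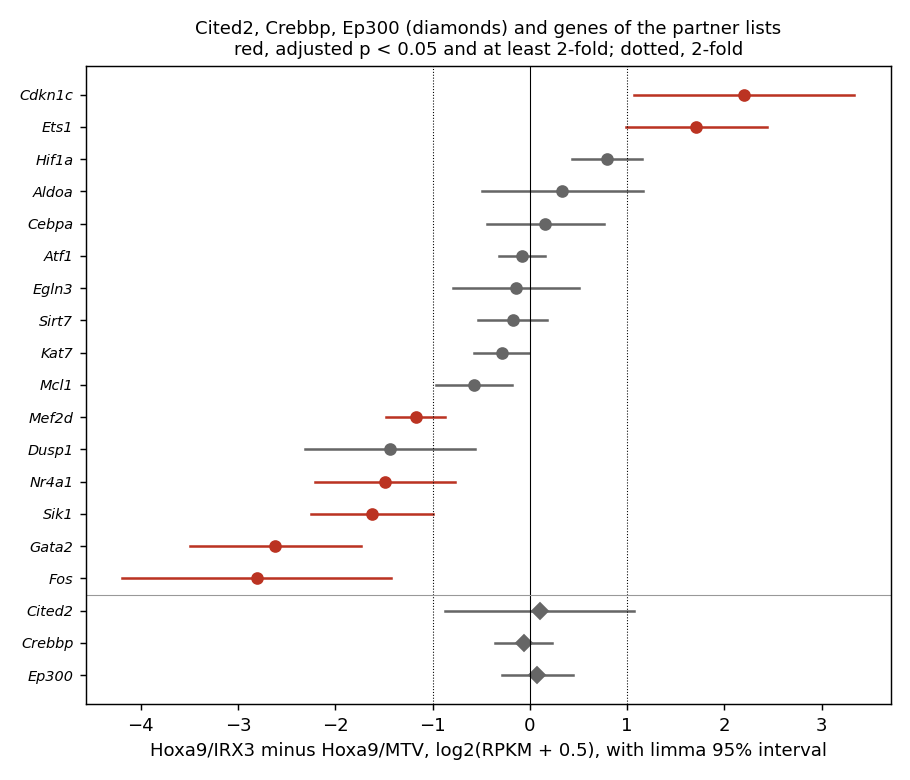
Difference between *Hoxa9*/*IRX3* and *Hoxa9*/MTV leukemias on the log2(RPKM + 0.5) scale with limma's 95% interval, for *Cited2*, *Crebbp* and *Ep300* (diamonds) and for the tested partner and target genes described in the text other than *Vegfa*, *Ddit4* and *Pdk1* (circles), in red where both limits were passed. *Crebbp* and *Ep300* have intervals inside the dotted lines at 2-fold, and *Cited4* (6.42, untested) is not drawn.

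Other enzymes of the same reaction showed no call by limma. Of 8 tested lysine acetyltransferases outside CBP and p300, 0 passed by limma, voom or the study's criterion and 1 had an unadjusted p under 0.05. *Kat7*, the most abundant, differed by -0.29 (adjusted p = 0.195). Of 13 tested histone deacetylases and sirtuins, which remove acetyl groups, 0 passed by limma or voom, 1 was lower under the study's criterion and 3 had an unadjusted p under 0.05. *Sirt7*, the most abundant, differed by -0.18 (adjusted p = 0.497). Among all tested genes 3.13% were called by limma and 24.3% had an unadjusted p under 0.05, so 0 calls on lists this short are no result.

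Of 11 tested genes linked to Cited2 in stem cells, 1 rose and 1 fell by limma, with 5 at an unadjusted p under 0.05, while voom called 0 and the study's criterion 1 lower. Among all tested genes 3.13% were called by limma and 24.3% had such a p. The gene of this list that fell is *Gata2*, given above. *Cdkn1c*, an inhibitor of the cell cycle, rose by 2.2 (SE 0.47, adjusted p = 0.0498 by limma), from 1.00, 0.669 and 1.07 RPKM in mice 1.1, 1.2 and 1.4 to 2.59, 6.61 and 11.8 in mice 3.2, 3.3 and 3.5. The cohorts did not overlap, but the call was kept only without mouse 3.2 and voom gave an adjusted p of 0.141. *Mcl1*, an antiapoptotic gene and the most abundant of the list, differed by -0.57 (adjusted p = 0.0948).

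Of the genes of the sorting gate, *Kit*, *Ptprc* and the Gr1 gene *Ly6c2* were present in each mouse. So were *Itgam* and *Mpo*, which were not sorted on. The other Gr1 gene, *Ly6g*, was at 0.0532 to 0.145 RPKM in *Hoxa9*/MTV and 0.682 to 1.42 in *Hoxa9*/*IRX3* mice. It was called higher by limma (1.35, adjusted p = 0.0205), a call kept in 3 of the fits without 1 mouse. *Ly6c1* was at 0 in mice 1.2, 1.4 and 3.3 and at most 0.391 RPKM in the others. Summed markers of some cell types also differed between the cohorts. A sum does not tell whether the sorted leukemia cells themselves or other cells carried these genes. Summed monocyte and macrophage markers were 190.4 to 218 RPKM in *Hoxa9*/MTV and 33.8 to 109 in *Hoxa9*/*IRX3* mice (4 of 10 tested fell, 0 rose). Not all genes of this list were low in each *Hoxa9*/*IRX3* mouse. *Irf8* was highest in mouse 3.3, at 63.1 RPKM against 25.5 to 39.6 in *Hoxa9*/MTV mice, but at 2.61 and 2.98 in mice 3.2 and 3.5. *Csf1r* was also highest in mouse 3.3 (6.43), and *Cd14* in mouse 3.2 (50.8). Neutrophil markers summed to 2655 to 3868 and 6105 to 6498 (1 of 13 rose, 0 fell). The neutrophil gene that rose was *Elane*, and without it the sums overlapped, at 2040.4 to 2815 and 2774 to 4261. Of the 13 neutrophil genes 10 had a difference above 0 and 3 below it, *Ltf* (-0.99), *Mmp8* (-0.75) and *Ngp* (-0.13). Mast cell and basophil markers, which include *Gata2*, were 16.1 to 21.8 and 4.80 to 8.02 (2 of 5 fell, 0 rose), with *Fcer1a*, *Tpsb2* and *Cma1* at 0 in all mice. *Ms4a2* of this list went the other way, at 0.279 to 0.542 RPKM in *Hoxa9*/MTV and 0.610 to 1.09 in *Hoxa9*/*IRX3* mice. Its difference was 0.66 (adjusted p = 0.103 by limma). T and NK cell markers summed to 22.7 to 33.0 and 14.9 to 482, nearly all of it *Nkg7*, the 1 member that could be tested and did not pass, with *Cd3d* and *Ncr1* at 0 in all mice. B cell markers summed to 6.45 to 7.33 and 2.01 to 43.4 (of 3 tested, *Cd79b* fell and 0 rose), with *Ms4a1* and *Pax5* at 0 in all mice. *Igll1*, which made up most of the highest sum, differed by 3.92 and *Vpreb1* by 1.08, each without overlap of cohorts but with adjusted p of 0.0776 and 0.272 by limma. Of the dendritic cell and MHC class II markers 1 of 4 tested fell, *Flt3*, with sums of 3.98 to 6.09 and 0.150 to 6.02. Stroma markers summed to 2.91 to 3.72 and 0.585 to 6.69, with 0 of 2 tested called and *Pdgfrb* at -1.25 without overlap (adjusted p = 0.0546 by limma). Erythroid markers summed to at most 0.303 RPKM in any mouse. Beside these counts, 1.1% of all tested genes rose and 2.03% fell by limma, and 33.7% had cohorts that did not overlap. The single marker genes were named after their values were seen. The part of these differences in the changes of *Cited4* and of the partner genes was not tested.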

How the data were processed

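Sorted cells of 3 mice per cohort were sequenced, 1 library per mouse, and cohorts were taken from the labels. The authors made strand-specific polyA libraries, sequenced paired ends of 75 bases, aligned them to GRCm38 with Bowtie2 2.2.1, filtered with SAMtools 0.1.19, assigned reads to Ensembl 76 genes, and deposited 1 RPKM per gene and library. Their RPKM divides by the whole gene span. For each gene and library, the library size was computed that its RPKM and span would give for 1 read. The most common of these values over genes was used, which gave 7979246 to 9803621 reads per library. A gene's reads were then recovered from its RPKM, its length and this library size. For 99.5% of tested genes all values were whole reads within 0.01, when the length was searched within 50% of the GENCODE M21 span (65.0% at that span itself). Reads over gene exon length gave exon RPKM.

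Protein-coding genes over 0.5 RPKM in at least 1 mouse (9522) were fitted on log2(RPKM + 0.5) by limma 3.58.1 under R 4.3.3, with a trend in eBayes, and p-values were adjusted over all of them (Benjamini-Hochberg). A call needed an adjusted p under 0.05 and a 2-fold change. limma was tested on simulated data. Mice are separate animals. Single ratios were compared with exact two-sided permutation tests. Counting intervals and the floor of 3 reads per library cover counting error only.

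Members and lists were chosen with earlier results of these data known. Genes named by rule are the members, up to 4 called genes and the most abundant gene per list, the nearest tested neighbours of *Cited4* and *Cited2*, and the genes most like each member. *Hif1a*, *Vegfa*, *Ddit4*, *Pdk1* and the single marker genes were named outside this rule, after their values were seen. Promoter sequences are from RefSeq (GRCm38.p6), and coding sequences from GENCODE M21. Protein sequences were not used here. Alternatives were other pseudocounts (0.1 and 1), filters, scalings, exon length, no variance trend, sample weights, voom, the study's criterion, and leaving out each mouse. Python 3.11.15 with numpy 2.4.6, pandas 2.3.3, scipy 1.17.1 and matplotlib 3.10.9 served for other steps.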

Additional observations from a re-analysis of the deposited data

How the results depend on the processing

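No paired analysis was possible because mouse numbers differ between the cohorts and name animals. The *Cited4* difference of 6.42 stayed positive throughout but moved with the added constant and the test, to 7.93 with a pseudocount of 0.1, 5.58 with a pseudocount of 1, 8.36 with voom on recovered reads and 9.10 as the log2 ratio of means under the study's criterion. Leaving out 1 mouse gave 5.79 to 6.86 for *Cited4* and -0.23 to -0.07 for *Cited1*. *Cited1* was below the filter, so its values are plain differences of means, the same (-0.17) with no filter, and it was not among the genes fitted under the other settings. *Crebbp* turned to 0.0048 under quantile normalization and lay between -0.13 and -0.0020 without 1 mouse. Without 1 mouse *Cited2* lay between -0.19 and 0.47 and *Ep300* between -0.036 and 0.18, negative in 3 fits (-0.12, -0.040 and -0.19 without mice 1.1, 1.2 and 3.2) and in 2 fits (-0.036 and -0.016 without mice 1.2 and 3.3), and neither was called in any setting. Calls over all genes numbered 298, and 175 with no filter, 553 with exon length, 664 under the study's criterion and 61 to 409 without 1 mouse (74, 66 and 61 without mice 1.1, 1.2 and 1.4). Calls on the partner lists numbered 7, and 2 with no filter, 4 with voom and 0 to 10 without 1 mouse. With 3 mice per cohort and 1 to 2 *Cited4* reads per *Hoxa9*/MTV library, its low level is known only as a few reads, and changes under 2-fold in *Cited2* were not resolved.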
